A study of Mus musculus with 12 samples.

Results

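The liver packages triglyceride into very low density lipoprotein (VLDL) on a single molecule of apolipoprotein B, and 10 genes of that route were followed in the livers of obese mice after sleeve gastrectomy or calorie restriction. They were chosen by name: Apob, Mttp, Tm6sf2, Cideb, Apoa1, Apoa4, Apoa5, Apoc2, Apoc3 and Apoe, each matched to its Ensembl gene in a table of 46078 genes. All 10 passed the filter on low counts, as did 13054 genes in all. The mice were C57BL/6 (C57BL/6J males in the study's methods), 21 weeks old, with diet-induced obesity, and every group had surgery: vertical sleeve gastrectomy (VSG), sham surgery followed by food restriction to the weight of the VSG mice (Sham-WM, "cal res" in the labels), or sham surgery with unrestricted food (Sham-Ad lib). Each group had 4 mice with 1 liver library each, named here by the animal number and always given in the order 3F, 4F, 6F and 10F for Sham-Ad lib, 2F, 9F, 15F and 16F for Sham-WM, and 1F, 8F, 11F and 18F for VSG. No unoperated mice are among them.

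VLDL assembly starts in the endoplasmic reticulum, where microsomal triglyceride transfer protein (Mttp) adds lipid to nascent apolipoprotein B (Apob), and further lipid is added before secretion with the help of Tm6sf2 and Cideb. The exchangeable apolipoproteins then ride on the particle: apolipoprotein C-II (Apoc2) activates lipoprotein lipase, C-III (Apoc3) restrains triglyceride clearance, A-V (Apoa5) promotes it, and E (Apoe) is a ligand for the receptors that take remnants up. Apolipoprotein A-I (Apoa1) is the main protein of high density lipoprotein (HDL), and A-IV (Apoa4) is made by the intestine and, in mice, also by the liver.

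The libraries held 15122520 to 19384076 counts. Group membership rests on the animal number shared by the library name and the sample title. In the description field each library name stands beside the title of a different animal, and grouping by it would leave only 4 of the 12 libraries where they are. Library index numbers form 1 block per group, so that any batch tied to them cannot be told apart from the groups. Kupffer cell markers summed to 136 to 436 CPM (counts per 1000000 counts of the TMM-scaled library) in the Sham-Ad lib livers, 121 to 211 in those of Sham-WM and 452 to 1292 after VSG, and 7 of 7 passed the test between VSG and Sham-WM. Neutrophil markers summed to 0.595 to 12.6, 1.41 to 2.39 and 27.1 to 876 CPM, and 5 of 6 passed it. Hepatocyte markers summed to 100528 to 116294, 112918 to 144512 and 79335 to 116236 CPM, and 3 of 6 passed it. The part of this cell mixture in the results below was not tested, and fewer hepatocytes cannot be told apart from less RNA per hepatocyte in bulk liver. The intestine also makes Apoa1 and Apoa4. Of 6 enterocyte markers, Sis, Alpi, Cdx1 and Cdx2 were at 0 in all libraries, Vil1 had at most 4 counts and Fabp2 up to 2929, so that the list summed to 72.5 to 138.5 CPM in Sham-Ad lib, 99.8 to 149 under Sham-WM and 47.2 to 148 after VSG. Fabp2, the only one of them tested, did not pass in a comparison, and the part of these markers in both genes was not tested. Of 4 markers of acinar pancreas, 3 were at 0 in all libraries.

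In mm10, 4 of the genes lie side by side on chromosome 9 within 43.3 kb: Apoa1 (chr9:46228580-46230466, + strand), Apoc3 (chr9:46232933-46235636, − strand), Apoa4 (chr9:46240696-46243459, + strand) and Apoa5 (chr9:46268633-46271919, + strand). Apoc2 (chr7:19671579-19677941, − strand) and Apoe (chr7:19696109-19699188, − strand) share a second cluster of 27.6 kb. The other genes are single: Apob at chr12:7977648-8016835 (+ strand), Mttp at chr3:138089854-138144968 (− strand), Tm6sf2 at chr8:70072924-70080066 (+ strand) and Cideb at chr14:55754050-55758458 (− strand). The exons of Cideb overlap those of Nop9 on the opposite strand over 76.3% of their length, and 79.5% of the exon length of Apoc2 is shared with the readthrough model Gm44805, which has no row in the table. Opposite-strand models also overlap the exons of Apoa4 (34.9% with Gm47528 and 34.8% with Gm10680) and of Apoa5 (20.8% with Gm47544). Gm10680 had a mean count of 0.0, and Gm47528 and Gm47544 have no row. Whether counting used strand is not given in the sources used here. The values of Cideb, Apoa4 and Apoa5, and to a lesser degree of Mttp (7.4% shared with Trmt10a), are therefore uncertain.

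The sequences before Apoa4 and Apoa5 are shown because these neighbours were the members of the chromosome 9 cluster that passed a test, and in different comparisons. They come from RefSeq windows of GRCm38.p6 and stop before the first start site of either annotation. Capitals mark matches to 1 of 5 motifs searched on both strands.
Apoa4, chr9:46240594-46240695, + strand: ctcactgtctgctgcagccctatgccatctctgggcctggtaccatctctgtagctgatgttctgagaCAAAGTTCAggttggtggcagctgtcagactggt
Apoa5, chr9:46268358-46268607, + strand: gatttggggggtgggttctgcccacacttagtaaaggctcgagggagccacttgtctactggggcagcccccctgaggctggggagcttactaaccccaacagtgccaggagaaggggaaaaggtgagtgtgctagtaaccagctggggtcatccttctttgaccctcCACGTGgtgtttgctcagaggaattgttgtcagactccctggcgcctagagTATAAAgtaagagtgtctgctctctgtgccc
The capitals before Apoa4 match the HNF4-type letters CAAAGTNCA, which occur in 1.41% of 32851 promoter windows of 300 bases in the same table. Before Apoa5 they mark an E-box (CACGTG, in 7.15% of windows) and a TATA box (TATAAA, in 13.62%). Of the 11 windows available for 8 members, 5 held the letters of the TATA box (Apoa5, Apob, Apoe and Cideb), 2 the E-box, both of Apoa5, and 1 the HNF4-type letters. The TATA letters began at -31 and -56 from the RefSeq start site in the windows of Apoa5 and at -60 for Apob. They began at -100 and -96 for Apoe and at -172 for Cideb. Distances from the start sites of the other annotation, where these differ, are not given. The window of Apoe (chr7:19698572-19698871) lies inside the gene as placed above, so its matches are not before that start. The 2 windows of Apoa5 overlap, and matches overlapped each other only before Apoe, where they were both of the TATA box. The DR1-type letters TGNCCTTTG (1.93% of windows) were found for Apob, and the CRE-type letters ACGTCA (7.51%) for Mttp, in a window at the distal start that faces Trmt10a. Apoc3 and Tm6sf2 had no window. A match is a description of letters and says nothing of binding.

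**Figure D1:**
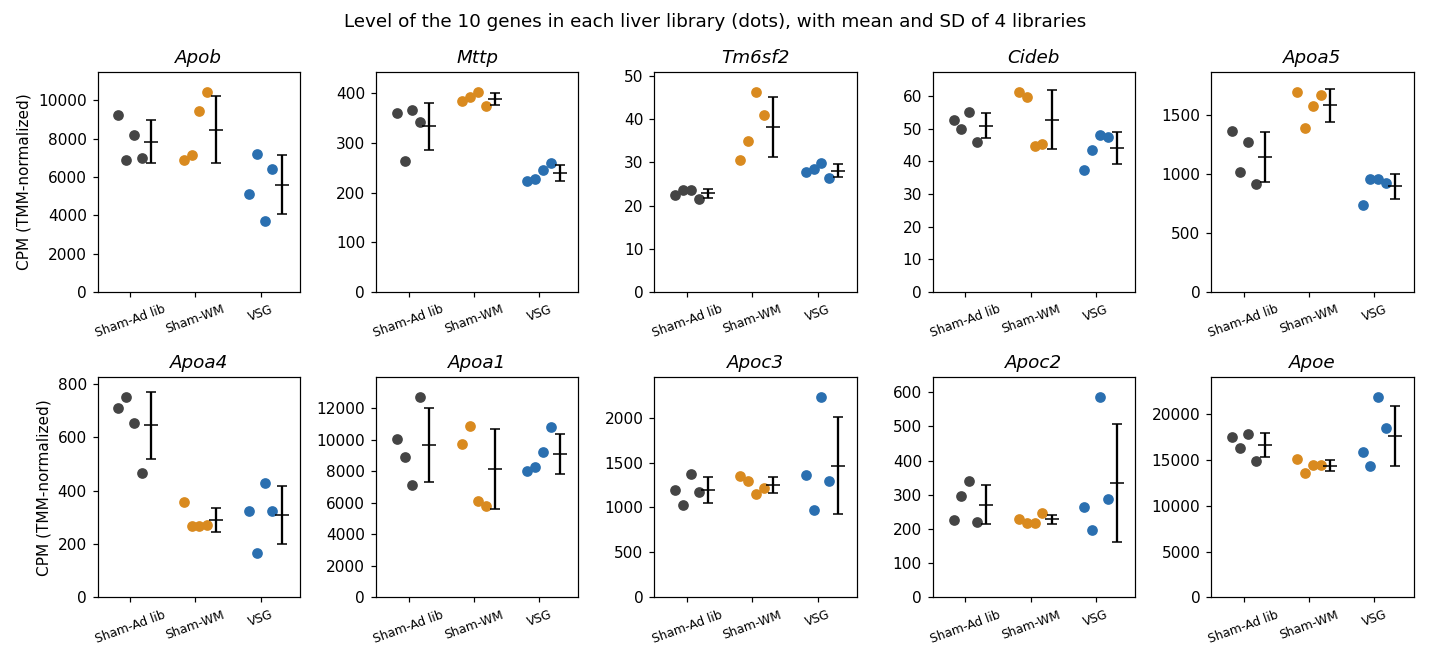
Each panel plots 1 gene, with TMM-normalized CPM on the y axis from 0 and the 3 groups on the x axis; dots are the 4 libraries of a group and bars the mean ± SD. Apoa4 was at 466 CPM or more in the Sham-Ad lib libraries and at 429 or less in all others, and Apoa5 and Mttp were lower in each VSG library than in each Sham-WM library.

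Between VSG and Sham-WM, which were weight-matched by design, 3 of the 10 genes passed the test (edgeR's quasi-likelihood test, Benjamini-Hochberg adjusted p under 0.05), all lower after VSG: Mttp, Apoa5 and Tm6sf2. Across all genes 26.9% passed in this comparison and 11.9% were lower, so the share of members that passed is near the background. Between Sham-WM and Sham-Ad lib 2 of 10 passed, with Tm6sf2 higher and Apoa4 lower, against 6.99% of all genes (3.53% higher and 3.45% lower). Between VSG and Sham-Ad lib 0 of 10 passed edgeR's test, against 0.751% of all genes; 5 had an unadjusted p under 0.05, as did 24.1% of all genes, and DESeq2 called 2, Apoa4 and Mttp, where it called 8.42% of all genes. DESeq2 called 3 members between Sham-WM and Sham-Ad lib (9.94% of all genes), adding Apoa5, and 4 between VSG and Sham-WM (27.8%), adding Apob.

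The values of the groups did not overlap for 3 members between VSG and Sham-Ad lib (9.21% of all genes), 4 between Sham-WM and Sham-Ad lib (17.6%) and 3 between VSG and Sham-WM (26.2%). Each of these had an exact two-sided permutation p of 0.0286, the smallest that 4 libraries against 4 can give, and 0.0857 after adjustment over 30 tests. The median log2 fold change of the members was -0.15, 0.06 and -0.08 in these 3 comparisons, and that of all tested genes was 0.03, 0.00 and 0.03. Both comparisons with Sham-Ad lib share its libraries, and the comparison of VSG with Sham-WM is also the test of the difference between their changes.

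**Figure D2:**
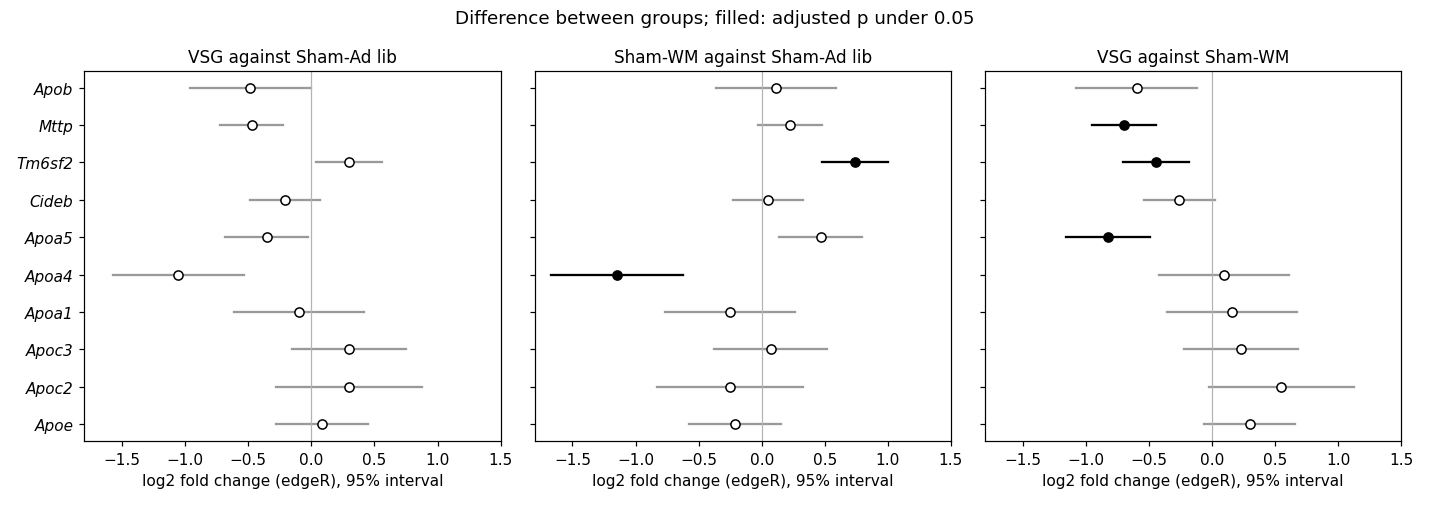
Log2 fold change (x axis) of each gene (y axis) in the 3 comparisons, with a 95% interval derived from edgeR's F statistic. Filled points passed the adjusted threshold. Of the 5 filled points, 1 lies above 0: Tm6sf2 in Sham-WM against Sham-Ad lib, at 0.74.

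Apob, the structural protein of the particle, had 9251, 6905, 8205 and 6992 CPM in the Sham-Ad lib libraries, 6880, 7129, 9435 and 10439 under Sham-WM and 5095, 7209, 3690 and 6401 after VSG. The VSG libraries were the lowest apart from 8F, which lay within both sham groups. The mean was 8471 ± 1745 CPM (SD, n = 4) in Sham-WM and 5599 ± 1542 in VSG, a log2 difference of -0.60 (95% interval -1.08 to -0.12, edgeR adjusted p = 0.0621). It passed in 1 of 12 fits that left out a library, without 8F (-0.75, edgeR adjusted p = 0.0334); over these fits the difference ran from -0.75 to -0.44, with an edgeR adjusted p of up to 0.172, without 16F. With factors of unwanted variation from the RUVs method it was -0.12 (edgeR adjusted p = 0.832). Against Sham-Ad lib (7838 ± 1113 CPM) the log2 difference was -0.49 for VSG (-0.96 to -0.01, adjusted p = 0.203) and 0.11 for Sham-WM (-0.37 to 0.59, adjusted p = 0.8292). The RUVs fit gave -0.16 and -0.04 for these, the second with the opposite sign, which it also had without 16F (-0.0020).

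Apob has exons of 13934 bases in all and is the longest transcript among the 10. Its level was set beside how long transcripts fared in each library. The slope of log2 CPM on exon length over 13017 genes was -0.27 per doubling in 11F and -0.13 in 1F, both VSG, and between -0.01 and 0.11 in the other libraries. Apob was lowest in 11F (11.85 log2 CPM) and 1F (12.32) and highest in 16F (13.35) and 15F (13.20), which had the steepest positive slopes, 0.09 and 0.11. Set against the short Apoa1 within a library, the log2 difference ran from -1.32 in 11F to 0.85 in 16F. The order was not the same throughout, since 9F had a slope of 0.055 and 12.80 log2 CPM, and 8F a slope of 0.003 and 12.82. With the GC and length trends of each library removed, the log2 difference of Apob between VSG and Sham-WM was -0.39 (edgeR adjusted p = 0.116). That fit removed both trends together, and the part of transcript length in the difference was not tested.

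**Figure D3:**
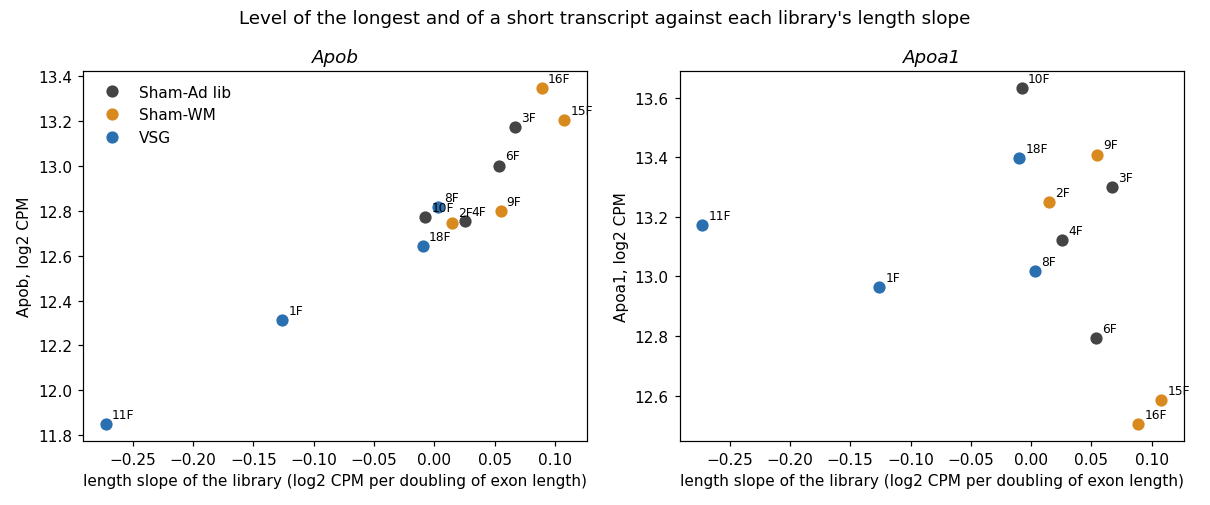
Log2 CPM of Apob (left) and Apoa1 (right) on the y axis against the slope of log2 CPM per doubling of exon length in the same library on the x axis; each point is 1 library, coloured by group. Libraries 11F and 1F have the lowest slopes, -0.27 and -0.13, and the lowest Apob, 11.85 and 12.32.

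Mttp, which loads lipid onto apolipoprotein B and is required for VLDL secretion, had 360, 263, 365 and 342 CPM in the Sham-Ad lib libraries, 384, 392, 402 and 375 under Sham-WM and 224, 228, 246 and 260 after VSG. Every VSG library was below every library of both sham groups, and library 4F was the lowest of the sham mice. The level was 239 ± 16.6 CPM in VSG and 388 ± 11.7 in Sham-WM, a log2 difference of -0.70 (SE 0.117, edgeR adjusted p = 0.00184), and it passed in all 12 fits that left out a library. In the RUVs fit the log2 difference was -0.45 and did not pass (edgeR adjusted p = 0.0746). Against Sham-Ad lib (333 ± 47.2 CPM) Mttp in VSG differed by -0.47 on the log2 scale (SE 0.117), with an adjusted p of 0.0582 from edgeR and 0.00176 from DESeq2. With a library left out, this difference stayed between -0.57 and -0.43, and edgeR called it in 2 of 12 fits, without 4F (adjusted p = 0.00920) and without 18F (0.0354), while the highest adjusted p was 0.192, without 1F. The RUVs fit gave -0.26 (edgeR adjusted p = 0.524). Sham-WM against Sham-Ad lib gave 0.22 (-0.03 to 0.48, edgeR adjusted p = 0.292), although the libraries did not overlap.

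Tm6sf2, a membrane protein needed for full lipidation of VLDL, was the least abundant of the 10. It had 22.5, 23.5, 23.6 and 21.6 CPM in the Sham-Ad lib libraries, 30.4, 34.9, 46.2 and 40.9 under Sham-WM and 27.6, 28.3, 29.9 and 26.4 after VSG. The groups stood in 3 separate ranges, with Sham-WM the highest and the most spread and VSG between the sham groups. Sham-WM exceeded Sham-Ad lib by 0.74 on the log2 scale (SE 0.121, edgeR adjusted p = 0.00344), from 22.8 ± 0.961 to 38.1 ± 6.91 CPM, and passed in all 12 fits that left out a library. VSG, at 28.1 ± 1.46 CPM, was lower than Sham-WM by -0.44 (SE 0.12, edgeR adjusted p = 0.0177), but this did not pass without 15F (adjusted p = 0.0575) or without 16F (0.0519). The RUVs fit gave -0.39 with an edgeR adjusted p of 0.292, and the fit with GC and length trends removed gave -0.73 (edgeR adjusted p = 0.00246). VSG against Sham-Ad lib gave 0.30 (0.04 to 0.56, edgeR adjusted p = 0.160), and 0.05 with the GC and length trends removed.

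Cideb, a lipid droplet protein that takes part in VLDL maturation, did not pass in any comparison of the main analysis. Its lowest library was 1F of VSG with 37.3 CPM and its highest 2F of Sham-WM with 61.3. The log2 difference between VSG and Sham-WM was -0.26 (95% interval -0.54 to 0.02, edgeR adjusted p = 0.151). With the GC and length trends removed it was -0.59 and passed (edgeR adjusted p = 0.00946), and the difference from Sham-Ad lib was -0.50 (adjusted p = 0.0682) in place of -0.21 (0.340).

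Apoa5 had 1368, 1023, 1272 and 920 CPM in the Sham-Ad lib libraries, 1698, 1389, 1580 and 1669 under Sham-WM and 737, 959, 963 and 925 after VSG. All Sham-WM libraries were above all others, whereas the VSG range reached into that of Sham-Ad lib through library 10F. VSG (896 ± 107.4 CPM) was lower than Sham-WM (1584 ± 139 CPM) by -0.82 on the log2 scale (SE 0.154, edgeR adjusted p = 0.00290), in each of 12 fits that left out a library. The RUVs fit gave -0.52, which did not pass (edgeR adjusted p = 0.169). From Sham-Ad lib (1145 ± 209 CPM), Sham-WM differed by 0.47 (0.14 to 0.80, adjusted p = 0.0873 with edgeR and 0.0218 with DESeq2) and VSG by -0.35 (-0.68 to -0.02, edgeR adjusted p = 0.183). For Sham-WM the fits with RUVr and RUVs factors gave 0.48 and 0.42 (edgeR adjusted p = 0.0217 and 0.0499), and 0 of 12 fits that left out a library passed. For VSG the RUVs fit gave -0.10, and the fit without GC and length trends -0.55 (edgeR adjusted p = 0.0878).

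Apoa4, its neighbour, had another pattern. It had 707, 750, 652 and 466 CPM in the Sham-Ad lib libraries, 359, 266, 267 and 271 under Sham-WM and 323, 166, 429 and 322 after VSG. Every library of both treated groups was below every Sham-Ad lib library, and the treated groups overlapped. Sham-WM (290.9 ± 45.1 CPM) was lower than Sham-Ad lib (643.9 ± 125 CPM) by -1.15 on the log2 scale (SE 0.242, edgeR adjusted p = 0.0133), and the adjusted p was 0.0502 without library 16F. VSG (310.0 ± 108.4 CPM) differed from Sham-Ad lib by -1.05 (SE 0.241), with an adjusted p of 0.0530 from edgeR and 0.000783 from DESeq2. The edgeR adjusted p was under the threshold without 4F (0.0422), 8F (0.0434), 11F (0.0469) or 18F (0.0378), and the highest value in these fits was 0.180, without 1F. The RUVs fit gave -1.14 (edgeR adjusted p = 0.350), and the fit without GC and length trends -1.32 (0.0348). Between VSG and Sham-WM the difference was 0.09 (-0.42 to 0.61, edgeR adjusted p = 0.801), and its sign turned without 11F (-0.10), with RUVs factors (-0.02) and without GC and length trends (-0.21).

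The ratio of Apoa5 to Apoa4 counts within a library does not depend on scaling between libraries. It was 1.93, 1.36, 1.95 and 1.97 in the Sham-Ad lib libraries, 4.74, 5.22, 5.91 and 6.15 under Sham-WM and 2.28, 5.79, 2.25 and 2.87 after VSG. The sham groups were far apart, and 3 of the VSG libraries lay just above Sham-Ad lib. Library 8F, the VSG library with the lowest Apoa4, had a ratio within the range of Sham-WM.

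**Figure D4:**
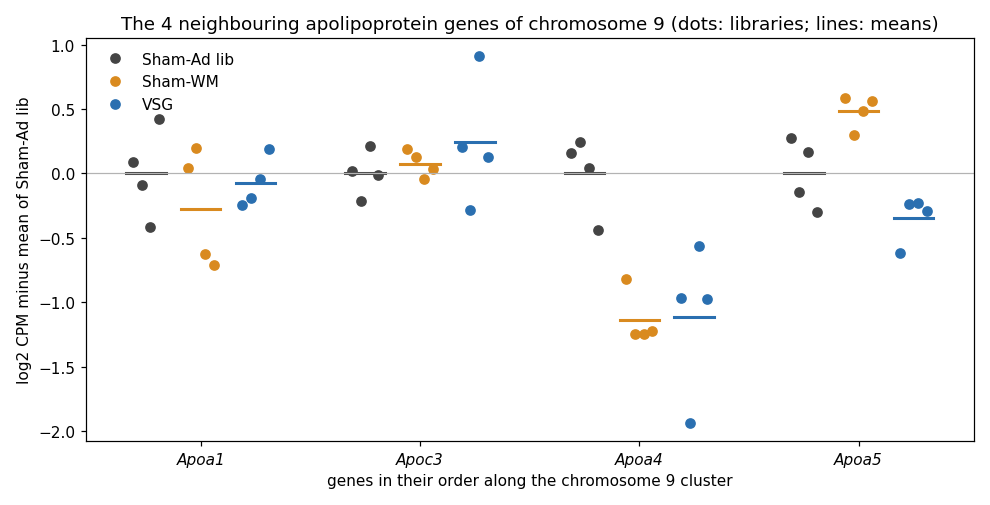
Log2 CPM of the 4 genes of the chromosome 9 cluster (x axis, in their order), less the mean of the Sham-Ad lib libraries (y axis); dots are libraries, coloured by group, and short lines are group means. Apoa4 lies below 0 in all 8 treated libraries, Apoa5 lies above 0 in Sham-WM and below 0 in VSG, and Apoa1 and Apoc3 overlap between the groups.

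Apoa1 and Apoc3, the other genes of the cluster, did not pass in any comparison. Apoa1 ranged from 5810 CPM in 16F to 12706 in 10F, and both 15F and 16F of Sham-WM were below all other libraries. Its log2 difference between VSG and Sham-Ad lib was -0.10 (-0.61 to 0.42, edgeR adjusted p = 0.833), an interval that leaves room for moderate changes either way. It was 0.04 without 10F and -0.39 with the GC and length trends removed. Apoc3 was between 976 and 1375 CPM in 11 libraries and at 2227 in library 11F. Its log2 difference between VSG and Sham-WM was 0.23 (-0.22 to 0.68, edgeR adjusted p = 0.433), which turned to -0.04 without 11F and to -0.23 with the GC and length trends removed.

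On chromosome 7, Apoc2 had 227, 297, 340 and 222 CPM in the Sham-Ad lib libraries, 229, 219, 217 and 246 under Sham-WM and 263, 198, 586 and 288 after VSG. Library 11F stood far above all others, while 8F was the lowest of all. VSG against Sham-WM gave a log2 difference of 0.55 (-0.03 to 1.13, edgeR adjusted p = 0.141). The difference was 0.70 without 8F (edgeR adjusted p = 0.0468), 0.13 without 11F (0.585) and 0.02 with the GC and length trends removed (0.952). Against Sham-Ad lib it was 0.30, and it turned to -0.13 without 11F and to -0.16 without the trends. Apoe ranged from 13570 CPM in 9F to 21885 in 11F, and its log2 difference between VSG and Sham-WM was 0.30 (-0.07 to 0.66, edgeR adjusted p = 0.205), or 0.05 with the GC and length trends removed. Library 11F, with the lowest length slope, was the highest of all for Apoc2, Apoc3 and Apoe, which have short transcripts, and the lowest for Apob. Apoa1, Apoa4, Cideb and Tm6sf2 have short transcripts too, but were not highest of all in 11F. Apoa1 had 9221 CPM there (12706 in 10F), Apoa4 429 (750 in 4F), Cideb 48.2 (61.3 in 2F) and Tm6sf2 29.9 (46.2 in 15F). Among the VSG libraries alone, 11F was the highest for Apoa4, Cideb and Tm6sf2, while 18F was the highest for Apoa1 (10797 CPM). The part of transcript length in these values was not tested.

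Together the 10 genes took 3.79 ± 0.25% of the counts in the Sham-Ad lib libraries, 3.56 ± 0.107% under Sham-WM and 3.48 ± 0.30% after VSG, with overlapping libraries. Per kilobase of exon, Apoe had the highest level (mean of 12 libraries 7598 CPM per kb), followed by Apoa1 (7259), Apoc3 (1285), Apob (524), Apoa5 (479), Apoc2 (342), Apoa4 (229), Mttp (51.6), Cideb (33.1) and Tm6sf2 (15.6). Neighbours in this order overlapped over the libraries for Apoe and Apoa1, from Apob to Apoa4, and for Mttp and Cideb. On this scale the assembly factors were at 64.8 CPM per kb or less in every library, and the apolipoproteins at 91.3 or more. Per kilobase of the longest transcript these ranges met, since Mttp reached 101 in 15F and Apoa4 was at 91.3 in 8F.

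For the 3 members whose group means ranged most, the tested genes with the closest profile over the 12 libraries were taken as those with the smallest root mean square difference of centred log2 CPM, among 10822 genes. For Apoa5 these were Plekha8 (0.125), Lman1 (0.144), a cargo receptor of the early secretory route, and Dnm1l (0.145), which divides mitochondria, against a spread of Apoa5 itself of 0.381. The closest member to Apoa5 was Mttp (0.192). For Tm6sf2 they included Gtf2f1 (0.128) and Aars (0.143), an alanyl-tRNA synthetase, against its own spread of 0.328. No gene came as close to Apoa4: Aatk (0.380) and Gm13775 (0.383) were nearest, against its own spread of 0.632.

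A further 79 genes of lipoprotein metabolism were examined in 5 lists, and 78 were tested; Apod, with at most 1 count in a library, was not. Between VSG and Sham-Ad lib, 2 of 78 passed, both lower (0.283% of all genes were lower), and the median log2 fold change was -0.10. With 3F, 6F, 10F, 2F, 9F, 15F, 16F or 1F left out, 0 of these genes passed edgeR's adjusted threshold in this comparison. The same fits called 0 to 3 of all genes. DESeq2 called 9 of the listed genes, where it called 8.42% of all genes. Between Sham-WM and Sham-Ad lib 6 were higher and 6 lower, against 3.53% and 3.45% of all genes, with a median of -0.08. Between VSG and Sham-WM 9 were higher and 17 lower, against 15.0% and 11.9% of all genes, with a median of -0.03.

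Of the other apolipoproteins and HDL partners, 3 of 14 (21.4%) passed edgeR's test between VSG and Sham-WM, where 26.9% of all genes did, and 0 in the comparisons with Sham-Ad lib. Clu, clusterin or apolipoprotein J, had 2927 ± 404 CPM in VSG and 1477 ± 38.3 in Sham-WM, a log2 difference of 0.99 (edgeR adjusted p = 0.00309). Abcg1, a cholesterol exporter that macrophages also express, was higher by 1.04, and Pon3, an HDL-bound lactonase, was lower by -0.37. Kupffer cell markers moved with Abcg1, and their part in it was not tested.

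Of 23 genes of assembly, editing and export, 2 were higher and 6 lower in VSG than in Sham-WM (34.8%, against 26.9% of all genes). Sham-WM differed from Sham-Ad lib in 6 of them, 2 upward and 4 downward (26.1%, against 6.99%), and 1 was lower in VSG than in Sham-Ad lib (4.35%, against 0.751%). Hspa5, the chaperone BiP of the endoplasmic reticulum, rose from 514 ± 121 CPM in Sham-Ad lib to 932 ± 145 in Sham-WM (log2 0.86, edgeR adjusted p = 0.0163) and was 452 ± 83.5 in VSG (log2 -1.04 against Sham-WM, adjusted p = 0.00253). The carboxylesterases Ces1d and Ces1g, of which Ces1d mobilizes triglyceride for VLDL, were lower in VSG than in Sham-WM by -1.47 and -1.22. Ces1d had 417 ± 327 CPM in VSG, a wide spread, and 1153 ± 67.1 in Sham-WM (edgeR adjusted p = 0.0250). Ces1g had 135 ± 42.8 and 313 ± 37.4 CPM (edgeR adjusted p = 0.00482). Both belong to a family of near copies that reads could be split between. Fitm2, which supports lipid droplet formation, was lower than in Sham-Ad lib both in VSG (-0.77, edgeR adjusted p = 0.0435) and in Sham-WM (-0.67, adjusted p = 0.0124). Cidec, a lipid droplet protein related to Cideb, was lower in Sham-WM than in Sham-Ad lib by -2.39, from 14.9 ± 12.2 to 2.84 ± 1.05 CPM (edgeR adjusted p = 0.0201). In VSG it had 2.75 ± 1.19 CPM, a log2 difference of -2.44 from Sham-Ad lib (edgeR adjusted p = 0.0528).

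Of 8 genes of plasma lipolysis, Angptl8, an inhibitor of lipoprotein lipase that feeding induces, had 21.4 ± 4.38 CPM in the Sham-Ad lib libraries, 55.9 ± 7.55 under Sham-WM and 17.1 ± 6.21 after VSG. It was higher in Sham-WM than in Sham-Ad lib (log2 1.39, edgeR adjusted p = 0.00504) and lower in VSG than in Sham-WM (log2 -1.71, adjusted p = 0.000889). Lpl, lipoprotein lipase itself, was higher in VSG than in Sham-WM by 1.45 (53.7 ± 17.3 against 19.7 ± 2.17 CPM). Macrophages express Lpl, and the part of the Kupffer cell markers in it was not tested.

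Of 10 genes of receptors and clearance, 1 was higher and 4 lower in VSG than in Sham-WM, against 15.0% and 11.9% of all genes. Sdc1, a heparan sulphate proteoglycan that binds remnants, was lower in VSG than in Sham-WM by -0.76. Sdc1 was also higher in Sham-WM than in Sham-Ad lib by 0.62, as was Lsr, a lipolysis-stimulated receptor, by 0.52. Lsr was lower in VSG than in Sham-WM by -0.42 (edgeR adjusted p = 0.0478).

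Of 23 transcription regulators, 3 were higher and 5 lower in VSG than in Sham-WM (34.8%, against 26.9% of all genes), and 1 was higher and 2 lower in Sham-WM than in Sham-Ad lib (13.04%, against 6.99%). Nr1d1, the clock repressor REV-ERB alpha, had 106.8 ± 27.2 CPM in the Sham-Ad lib libraries, 9.93 ± 3.12 under Sham-WM and 78.3 ± 31.8 after VSG. It was lower in Sham-WM than in Sham-Ad lib (log2 -3.42, edgeR adjusted p = 8.88e-05) and higher in VSG than in Sham-WM (log2 2.98, adjusted p = 0.000157). Foxa2, a regulator of hepatic lipid genes, was higher in Sham-WM than in Sham-Ad lib by 1.00. It was lower in VSG than in Sham-WM by -0.61 (edgeR adjusted p = 0.0203). Ppargc1b, a coactivator of lipogenic and lipoprotein genes, was lower in Sham-WM than in Sham-Ad lib by -1.33 and higher in VSG than in Sham-WM by 1.08, and Onecut1 (HNF6) was lower in VSG than in Sham-WM by -1.91.

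**Figure D5:**
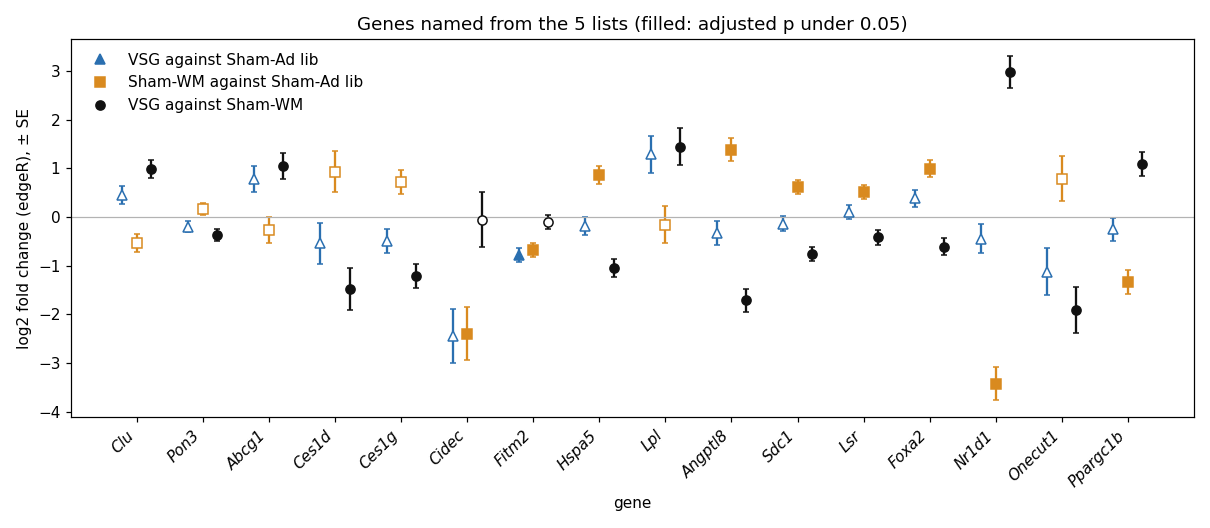
Log2 fold change ± SE (y axis) of the named genes of the 5 lists (x axis) in the 3 comparisons, shown by the shape and colour of the points; filled points passed the adjusted threshold. Angptl8, Hspa5, Sdc1, Lsr and Foxa2 have filled points above 0 in Sham-WM against Sham-Ad lib and below 0 in VSG against Sham-WM. Nr1d1 and Ppargc1b have the opposite signs.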

How the data were processed

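Poly(A) RNA of 12 livers was sequenced from directional libraries. The authors aligned reads to mm10 with TopHat2 2.1.1 and counted them with featureCounts, per the labels; they deposited whole-number counts per Ensembl gene, neither normalized nor batch corrected. All 12 columns were used. GENCODE M21 matched 45229 of 46078 genes.

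Counts were analysed in R 4.3.3 with edgeR 4.0.16 (limma 3.58.1): filterByExpr (minimum count 10, minimum total 15), TMM factors (0.879 to 1.04), 1 fit of 12 libraries, 3 contrasts, and adjustment over 13054 genes. CPM are given as mean ± SD of 4 mice, with a prior count of 2 on the log2 scale. The SE of a log2 fold change is its absolute value divided by the square root of edgeR's F statistic. The 95% intervals were built from this SE and a t quantile. DESeq2 1.42.0, other scalings, filters and groupings, RUVr and RUVs factors (k = 2, written out from their definitions) and leaving out each library were alternatives. Removing GC and length trends was added after seeing the data. The test was also run on simulated data, and the outcome is not given here.

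The members and lists were chosen with earlier results of these data known. All members are named, with up to 3 called genes of largest change per list and comparison. Some genes that this rule names are not reported here. Of 134 listed symbols, Tf was not matched. The lowest Spearman rho between replicates was 0.963.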

Additional observations from a re-analysis of the deposited data

Results flagged for a closer look

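In 30 groups of 4 libraries (10 genes in 3 groups), the gap between the most extreme library and its nearest neighbour was compared with the range of the group on the log2 CPM scale. Chance alone marks about 1 in 20 such groups, and 2 were marked. Apoa4 in Sham-WM had a ratio of 0.935 because library 2F had 359 CPM and the other libraries 266 to 271. Apoa5 in VSG had a ratio of 0.848 because library 1F had 737 CPM and the others 925 to 963.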

How the results depend on the processing

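Of 660 log2 fold changes of members under the alternatives, 597 kept their direction and side of the threshold, 22 newly passed, 8 no longer passed and 33 turned sign. Of these 33, 16 arose under grouping by the description field, and the other 17 did not pass in either fit. The 3 that turned from a call arose when libraries were grouped by the description field: Tm6sf2 (-0.33) and Apoa4 (0.35) in Sham-WM against Sham-Ad lib, and Apoa5 (0.026) in VSG against Sham-WM. Under that grouping 0 of all genes passed edgeR's adjusted threshold in each comparison, against 98, 912 and 3508 by the animal number, and 465, 715 and 158 had an unadjusted p under 0.05.
Members called between VSG and Sham-Ad lib numbered 0 in the main analysis, 2 with DESeq2, 2 without a filter, 3 with RUVr factors, 1 with GC and length trends removed, and 0 to 2 when 1 library was left out. Between Sham-WM and Sham-Ad lib they numbered 2, then 3 with DESeq2, RUVr factors or RUVs factors and 0 by the description field. They numbered 1 to 2 with a library left out. Between VSG and Sham-WM they numbered 3, then 4 with DESeq2 and 0 with RUVs factors or by the description field. They numbered 2 to 5 with a library left out (5 without 8F). With a library left out, calls over all genes ran from 2196 to 3867 between VSG and Sham-WM (3380 without 8F). Between Sham-WM and Sham-Ad lib they ran from 424 to 1311.
Other lipoprotein genes called between VSG and Sham-Ad lib numbered 2, then 9 with DESeq2, 8 without a filter, 27 with RUVr factors, 6 with GC and length trends removed, 0 with library totals alone, with at least 10 counts in every library, with only the 2 groups in the fit, with RUVs factors and by the description field, and 0 to 9 with a library left out (9 without 4F or 18F). Between Sham-WM and Sham-Ad lib they numbered 12, then 21 with RUVr or RUVs factors, 0 by the description field and 6 to 14 with a library left out (6 without 16F, 7 without 6F or 15F). Between VSG and Sham-WM they numbered 26, then 40 with RUVr factors, 12 with RUVs factors, 0 by the description field and 17 to 27 with a library left out (17 without 15F). Calls over all genes moved too. Between VSG and Sham-Ad lib they numbered 98, then 1227 with DESeq2, 628 without a filter, 3034 with RUVr factors, 363 without the trends, 8 with RUVs factors and 0 to 1089 with a library left out. For Sham-WM against Sham-Ad lib the RUVr and RUVs fits called 2197 and 1724 genes, and for VSG against Sham-WM 5513 and 525. The cause of these changes was not tested. Per kilobase of the longest transcript in place of all exons, Mttp was at 80.8 and Tm6sf2 at 20.5 CPM, and the order of the genes was the same. No paired analysis was possible because no groups share an animal number. With 4 libraries a group, intervals of members that did not pass often reach beyond 0.5 on the log2 scale.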
